A study of Homo sapiens with 8 samples.

Results

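DUSP4, DUSP5, DUSP6, SPRY2, SPRY4, SPRED1, PHLDA1, ETV5, EPHA2 and TMEM158 are feedback inhibitors and output genes of RAS-ERK signalling. They were chosen by gene name, with earlier results of these data known. All 10 were listed in both tables of ribosome footprints, among 11546 genes without and 11079 genes with 4-OHT, the tamoxifen metabolite (Z)-4-hydroxytamoxifen, and all 10 entered every test. The cells were BJ-HRAS cells, made from BJ, an established human skin fibroblast line. The WT group held clones 15 and 54 and the SNORA13 knockout group held clones 66 and 69, SNORA13 being a small nucleolar RNA. Each clone gave 1 library without 4-OHT (day 0) and 1 library with 4-OHT at 100 nM for 7 days. This makes 8 libraries in 4 groups of 2. The labels name HRAS without giving the construct or its switch. Neither HRAS nor SNORA13 was analysed here, so the labels of genotype and induction have no check from their own transcripts. Libraries called induced or uninduced below are those with or without 4-OHT, and RAS activity was not analysed here.

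In the RAS-ERK cascade, active RAS binds RAF kinases, which activate MEK and then ERK. ERK enters the nucleus and drives transcription of a set of immediate and delayed genes. Several of these genes encode brakes on the cascade: dual-specificity phosphatases remove the activating phosphates from ERK, and Sprouty and SPRED proteins act on the steps around RAS and RAF. In fibroblasts, sustained RAS activity is known to lead to oncogene-induced senescence.

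Ribosome footprints report mRNA amount and its translation together, and RNA abundance was not analysed here. Values are RPKM, reads scaled for gene length and library depth, over each gene's genomic span, introns included. The recovered reads, an approximate count worked back from the values, summed to 804550 to 1741277 per library without 4-OHT and 193917 to 1708751 with 4-OHT, the shallowest being knockout clone 66 with 4-OHT. All 10 fibroblast markers were above 0 in every library and took 6.55% to 8.64% of recovered reads without 4-OHT and 2.47% to 2.95% with it. They did not move as one: COL1A1 was at 983 to 1699 RPKM without and 77.1 to 116 RPKM with 4-OHT and DCN at 38.2 to 52.7 and 0.914 to 1.49 RPKM, while VIM was at 559 to 662 and 1787 to 2453 RPKM and THY1 at 70.8 to 74.0 and 73.7 to 114 RPKM. Among markers of other skin and blood cells, KRT10, the only one of 6 keratinocyte markers listed, was at 0 to 0.843 RPKM without and 2.26 to 10.2 RPKM with 4-OHT. Of 6 leukocyte markers, 3 were listed without and 2 with 4-OHT, and their summed level was 59.4 to 121 RPKM without and 113 to 169 RPKM with 4-OHT. CD68 was at 43.3 to 101 and 77.1 to 151 RPKM and CD14 at 14.1 to 20.1 and 17.5 to 50.4 RPKM, and PTPRC, the pan-leukocyte marker, at 0 to 0.0641 RPKM without 4-OHT. MITF, the only one of 6 melanocyte markers listed, was at 0.282 to 0.349 RPKM without and 0.0593 to 0.229 RPKM with 4-OHT. Of 6 endothelial markers, 2 were listed without and 2 with 4-OHT. Their summed level was 0 to 1.12 RPKM without and 0 to 0.676 RPKM with 4-OHT. The part of all these marker shifts in the results was not tested. In bulk libraries fewer cells of a type cannot be told apart from less RNA per cell. The libraries with 4-OHT (day 7) form one table and those without it (day 0) the other. Thus 4-OHT, the day and any batch of the tables cannot be told apart. The same holds for a genotype and its 2 clones.

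All 10 genes were higher with 4-OHT, in WT and in knockout clones, and in each gene the 2 libraries with 4-OHT lay above the 2 without. Because they were chosen with earlier results of these data known, their count beside the shares of all genes is a description. Of 8777 genes tested by limma-trend on log2(RPKM + 1), 13.5% were called higher in WT clones and 17.1% in knockout clones at an adjusted p under 0.05, and 8.06% and 10.6% were called lower. Groups did not overlap, with 4-OHT higher, for 41.5% of genes in WT and 36.8% in knockout clones. The median log2 change over the 10 genes was 2.97 in WT and 3.12 in knockout clones, beside 0.06 and 0.05 over all genes tested. Both are on the log2(RPKM + 1) scale, which understates the change of genes with low values. With the libraries scaled by median ratios, 815 genes were called higher and 981 lower in WT clones, in place of 1182 and 707. The same scaling gave 995 and 1347 in knockout clones, in place of 1498 and 929, and it left 9 of the 10 genes called higher in WT and 10 in knockout clones. Shorter genes changed more toward higher values (Spearman's rho across 8777 genes, which are not independent replicates, -0.28 in WT and -0.22 in knockout clones, for log2 change against span), and the spans of the 10 genes ran from 1.82 kb (TMEM158) to 104 kb (SPRED1). Of these 10 spans, 8 were shorter than the median of the genes tested, 34.1 kb, and the part of span in their changes was not tested.

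**Figure D1:**
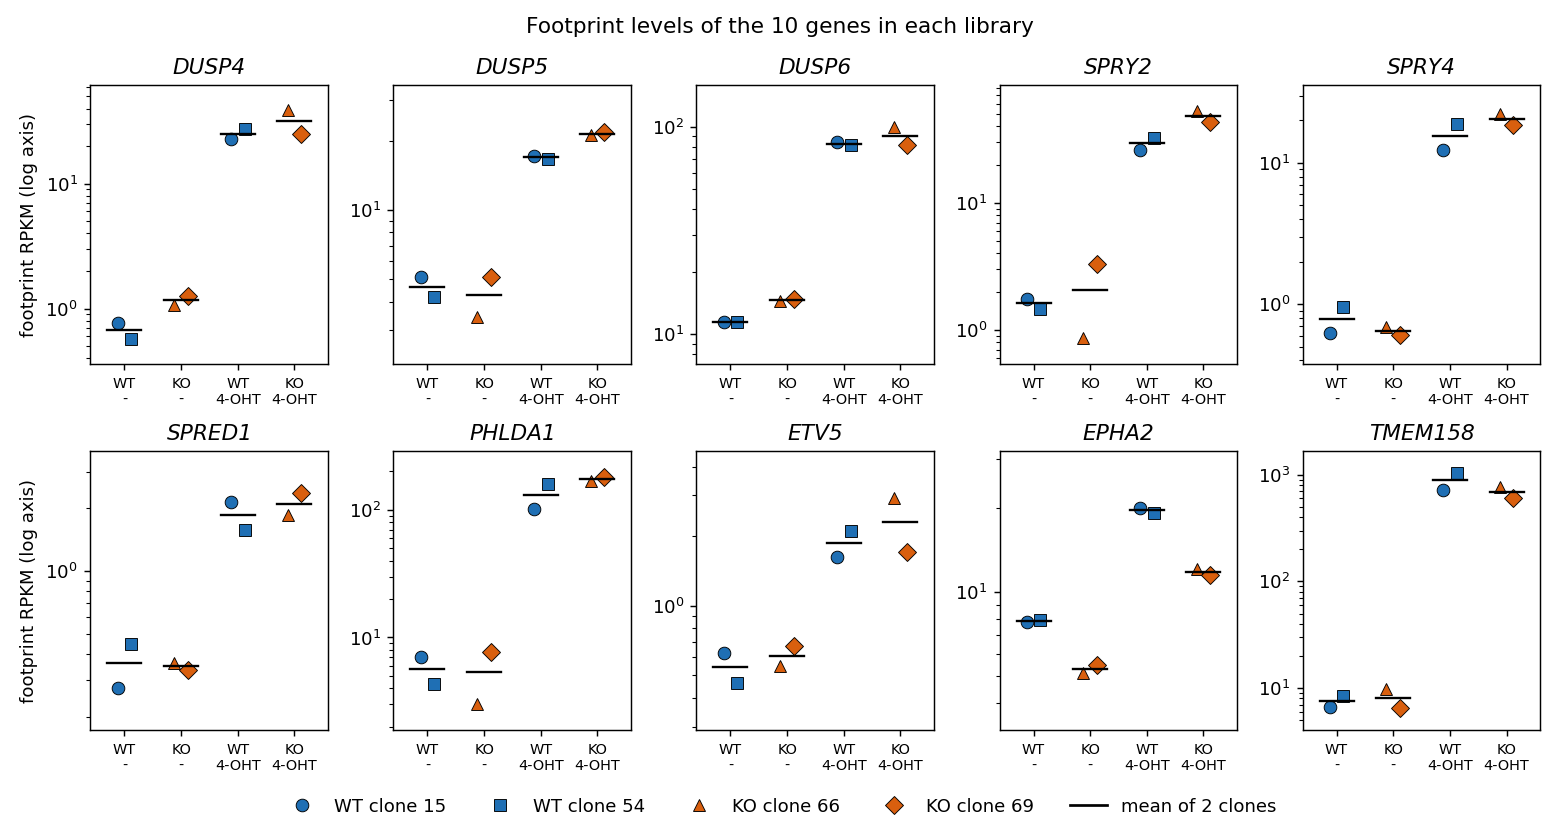
Footprint level of the 10 genes in each of the 8 libraries, as RPKM over the genomic span on a log axis, with 1 point per clone and the groups side by side. For every gene the libraries with 4-OHT sit above those without it, by the widest margin for TMEM158 and the narrowest for EPHA2 and ETV5.

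The proximal promoters show what DNA lies before 3 of these genes that changed by different amounts: DUSP6, a feedback phosphatase, EPHA2, with the smallest fold change per clone, and TMEM158, with the largest. RefSeq (GRCh38.p14) windows were matched by symbol for 7 of the 10 genes, and the 250 bases before the start are printed, 5′ to 3′ on the minus strand of chr12:89352502-89352751, chr1:16156070-16156319 and chr3:45226288-45226537 in that order. Capitals mark matches on either strand to an ETS core (CGGAA), a CRE core (TGACGTC) or a GC box (GGGCGG).
DUSP6: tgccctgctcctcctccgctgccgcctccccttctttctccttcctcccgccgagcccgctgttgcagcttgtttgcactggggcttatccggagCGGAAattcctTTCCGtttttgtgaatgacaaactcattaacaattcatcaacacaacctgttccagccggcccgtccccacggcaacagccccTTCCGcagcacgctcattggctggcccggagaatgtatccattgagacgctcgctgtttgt
EPHA2: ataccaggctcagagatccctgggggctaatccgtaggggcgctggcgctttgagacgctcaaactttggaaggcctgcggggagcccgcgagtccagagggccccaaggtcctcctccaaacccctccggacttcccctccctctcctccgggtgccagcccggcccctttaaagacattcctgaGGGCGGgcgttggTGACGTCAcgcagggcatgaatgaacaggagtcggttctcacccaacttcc
TMEM158: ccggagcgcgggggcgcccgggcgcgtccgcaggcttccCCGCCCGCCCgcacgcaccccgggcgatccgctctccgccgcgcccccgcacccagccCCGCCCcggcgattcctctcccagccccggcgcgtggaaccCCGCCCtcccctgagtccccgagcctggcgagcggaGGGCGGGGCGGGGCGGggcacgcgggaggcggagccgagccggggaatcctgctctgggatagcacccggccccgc
In windows of 250 bases before and 50 after the start, AP-1 (TGANTCA), ETS (CCGGAAG) and the CArG box of serum response factor had no match in the 7 genes, beside 7.76%, 10.7% and 1.29% of 27305 windows in the table and 4.47%, 20.8% and 1.05% of the 7117 windows of genes tested. The 3 shorter motifs were added after the windows were read. The ETS core was held by 3 of the 7 (DUSP6, PHLDA1 and SPRY2) beside 35.2% of all windows and 55.4% of those of genes tested, and the ETS motif above contains it. The GC box was held by 6 of the 7, all but DUSP6, beside 44.6% of all windows and 72.6% of those of genes tested. EPHA2 alone held the CRE core, on both strands and overlapping, beside 3.63% of all windows and 5.83% of those of genes tested. GC content of the 250 bases ran from 57.2% (DUSP6) to 82.4% (TMEM158), and 6 of the 7 lay above the median of the same 250 bases over the table, 58.0%. These matches describe letters in the window and say nothing about binding.

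The 3 dual-specificity phosphatases differed in where they started and how far they rose. DUSP4, a nuclear phosphatase of ERK and other MAP kinases, lies at chr8:29333064-29350684 (ENSG00000120875.9). It was at 0.773 and 0.574 RPKM in WT clones 15 and 54 and at 1.07 and 1.26 RPKM in knockout clones 66 and 69 without 4-OHT. With 4-OHT it was at 22.8 and 27.3 RPKM in the WT clones and at 38.7 and 25.2 RPKM in the knockout clones. The lowest induced library was thus far above the highest uninduced one, and the ratio within a clone ran from 19.98 to 47.5. Its uninduced values rest on only 8 to 38 recovered reads. The log2 change was 3.96 ± 0.24 (SE) in WT clones (limma-trend, adjusted p = 0.000203) and 3.90 in knockout clones (adjusted p = 0.000167), which placed it 15th and 21st of the 8777 genes by rise. The fit gives a gene the same SE in both genotypes, because the groups share 1 spread.

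DUSP6, a cytoplasmic phosphatase specific for ERK, had the highest level of the 10 per span without 4-OHT. It lies at chr12:89347235-89352501 (ENSG00000139318.8). The WT clones were at 11.5 and 11.5 RPKM and the knockout clones at 14.5 and 14.9 RPKM without 4-OHT. With 4-OHT the WT clones were at 84.7 and 81.6 RPKM and the knockout clones at 99.5 and 82.0 RPKM. The ratio was close among clones, from 5.51 to 7.37, and the WT mean moved from 11.5 ± 0.0248 to 83.1 ± 2.19 RPKM (SD, n = 2). On the log2 scale DUSP6 rose by 2.75 ± 0.17 (SE) in WT and 2.54 in knockout clones (limma-trend, adjusted p = 0.000204 and 0.000230).

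DUSP5, a nuclear phosphatase specific for ERK, had the smallest log2 change of the 3. It lies at chr10:110497907-110511533 (ENSG00000138166.6). Without 4-OHT it was at 5.11 and 4.18 RPKM in WT clones and at 3.42 and 5.11 RPKM in knockout clones, and with 4-OHT at 17.2 and 16.7 RPKM in WT and at 21.1 and 21.9 RPKM in knockout clones. The induced values lay close together within a genotype, with the knockout clones above the WT clones. The ratio within a clone ran from 3.37 to 6.19. This gave DUSP5 a log2 change of 1.68 ± 0.21 (SE) in WT and 2.12 in knockout clones (limma-trend, adjusted p = 0.00221 and 0.000825).

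Among the Sprouty and SPRED proteins, SPRY2 and SPRY4, which restrain receptor tyrosine kinase signalling to RAS and RAF, rose by larger ratios than SPRED1, which recruits neurofibromin to the membrane. SPRY2 lies at chr13:80335976-80341126 (ENSG00000136158.12). It was at 1.76 and 1.47 RPKM in WT clones and at 0.861 and 3.29 RPKM in knockout clones 66 and 69 without 4-OHT. With 4-OHT it was at 26.0 and 32.6 RPKM in WT and at 52.9 and 43.5 RPKM in knockout clones. The 2 uninduced knockout clones bracketed both WT clones, and the value of clone 66 rests on 4 recovered reads (95% exact Poisson interval 1.09 to 10.2 reads, counting error only). The ratio in that clone, 61.4, is as uncertain, beside 13.2 to 22.2 in the other 3 clones. The log2 change was 3.53 ± 0.37 (SE) in WT and 4.11 in knockout clones (limma-trend, adjusted p = 0.00114 and 0.000631).

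SPRY4 lies at chr5:142310430-142325021 (ENSG00000187678.9), and all 4 uninduced libraries were under 1 RPKM. The WT clones were at 0.623 and 0.954 RPKM without 4-OHT and at 12.4 and 18.8 RPKM with it. The knockout clones were at 0.685 and 0.602 RPKM without and at 22.3 and 18.4 RPKM with 4-OHT. The groups without 4-OHT overlapped between genotypes, and the ratio within a clone ran from 19.6 to 32.6. The fitted log2 change of SPRY4 was 3.19 ± 0.24 (SE) in WT and 3.70 in knockout clones (limma-trend, adjusted p = 0.000472 and 0.000215).

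SPRED1, at chr15:38252836-38357249 (ENSG00000166068.13), had the lowest level of the 10 per span without 4-OHT, on a span of 104 kb. It was at 0.275 and 0.448 RPKM in WT and at 0.361 and 0.336 RPKM in knockout clones without 4-OHT, and at 2.14 and 1.58 RPKM in WT and 1.86 and 2.36 RPKM in knockout clones with 4-OHT. These low values rest on 34 to 60 recovered reads without 4-OHT and 37 to 376 with it, and the ratio within a clone ran from 3.52 to 7.78. The log2 change was 1.07 ± 0.19 (SE) in WT and 1.20 in knockout clones (limma-trend, adjusted p = 0.00828 and 0.00451). Because the added 1 exceeds its uninduced values, it was 2.10 and 2.29 with a pseudocount of 0.1. The WT call was lost without the WT clone 15 library, with or without 4-OHT (adjusted p = 0.0501 and 0.0777).

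TMEM158 and PHLDA1 had the highest levels per span with 4-OHT. TMEM158, a transmembrane protein first described as a gene induced in RAS-driven senescence, lies at chr3:45224466-45226287 (ENSG00000249992.1). It was at 6.68 and 8.37 RPKM in WT and at 9.78 and 6.45 RPKM in knockout clones without 4-OHT, which rest on 12 to 20 recovered reads. With 4-OHT it was at 720.8 and 1047 RPKM in WT and at 774 and 599.8 RPKM in knockout clones. The genotypes overlapped in both conditions. The ratio within a clone ran from 79.1 to 125, and TMEM158 ranked 3rd in WT and 4th in knockout clones of 8777 genes by rise, with a log2 change of 6.68 ± 0.28 (SE) and 6.25 (limma-trend, adjusted p = 5.96e-05 and 6.45e-05).

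PHLDA1, a protein with a pleckstrin homology-like domain, lies at chr12:76025447-76031776 (ENSG00000139289.13). Without 4-OHT it was at 7.04 and 4.32 RPKM in WT and at 3.005 and 7.65 RPKM in knockout clones, and with 4-OHT at 101 and 159.9 RPKM in WT and at 169 and 181 RPKM in knockout clones. The uninduced clones of each genotype differed by more than 1.5 times, and those of the 2 genotypes overlapped. With 4-OHT both knockout clones lay above both WT clones, and the ratio within a clone ran from 14.4 to 56.1. PHLDA1 thus had a log2 change of 4.29 ± 0.40 (SE) in WT and 4.90 in knockout clones (limma-trend, adjusted p = 0.000747 and 0.000411).

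EPHA2, a receptor tyrosine kinase for ephrin-A ligands, rose by a like factor in every clone, with both knockout clones below both WT clones in each condition. It lies at chr1:16124337-16156069 (ENSG00000142627.13). The WT clones were at 7.80 and 7.93 RPKM and the knockout clones at 5.10 and 5.45 RPKM without 4-OHT. With 4-OHT the WT clones were at 20.03 and 19.3 RPKM and the knockout clones at 12.1 and 11.5 RPKM. The 4 ratios lay between 2.10 and 2.57. EPHA2 rose on the log2 scale by 1.22 ± 0.16 (SE) in WT and 1.02 in knockout clones (limma-trend, adjusted p = 0.00266 and 0.00450).

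ETV5, an ETS transcription factor of the PEA3 group, had the smallest log2 change in WT clones on the log2(RPKM + 1) scale, while with a pseudocount of 0.1 and by limma-voom that of EPHA2 was smaller (1.31 and 1.33, against 1.61 and 1.66). It lies at chr3:186046314-186109089 (ENSG00000244405.8). It was at 0.627 and 0.463 RPKM in WT and at 0.548 and 0.671 RPKM in knockout clones without 4-OHT, and at 1.62 and 2.11 RPKM in WT and 2.92 and 1.70 RPKM in knockout clones with 4-OHT. All 4 induced libraries exceeded all 4 uninduced ones, with ratios of 2.54 to 5.33. The log2 change was 0.89 ± 0.23 (SE) in WT and 1.02 in knockout clones (limma-trend, adjusted p = 0.0347 and 0.0179), and the knockout value was 1.72 with a pseudocount of 0.1. The WT call was lost with each of the 4 WT libraries left out (adjusted p = 0.0851 to 0.188), with the clone as a block (0.0688), without the read filter (0.0502) and under median-ratio scaling (0.0554). The knockout call was lost on the 4 knockout libraries alone (adjusted p = 0.0833) and without knockout clone 66 (0.104) or 69 (0.0675) untreated.

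Annotated genes overlap 5 of the 10, namely POC1B-DUSP6, SPRY4-IT1, PHLDA1-AS1, ETV5-AS1 with LOC124909470, and EPHA2-AS1. None of these was listed in the tables, and the use of strand in the counting is not given in the sources used here, so reads of each pair cannot be told apart.

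**Figure D2:**
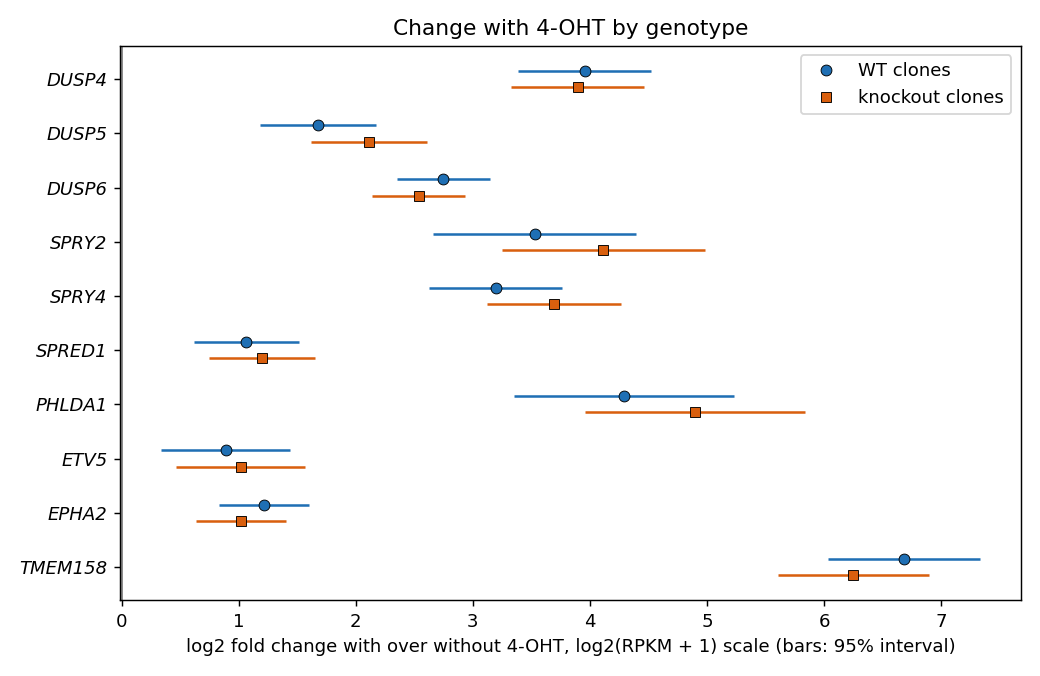
Log2 change in footprints with 4-OHT for each of the 10 genes in WT and in knockout clones, on the log2(RPKM + 1) scale, with 95% intervals from limma-trend. The changes run from 0.89 (ETV5, WT) to 6.68 (TMEM158, WT), and the intervals of the 2 genotypes overlap for every gene.

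On the scale of RPKM per genomic span, the order of levels with 4-OHT in WT clones was TMEM158, PHLDA1, DUSP6, then SPRY2 and DUSP4, EPHA2, DUSP5 and SPRY4, and last ETV5 and SPRED1. Within the pairs SPRY2 and DUSP4, DUSP5 and SPRY4, and ETV5 and SPRED1 the clones overlapped, so these neighbours did not differ beyond their spread. Without 4-OHT the order in WT clones led with DUSP6, followed by EPHA2, TMEM158, PHLDA1 and DUSP5, each of which overlapped its neighbour in that order. SPRY2 came next, then SPRY4, DUSP4 and ETV5 with overlap, and SPRED1. Introns count in the span, so genes with long introns such as SPRED1 and ETV5 stand lower on this scale than per length of mature mRNA.

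The 10 genes moved together over the 8 libraries. Pearson's r between their log2(RPKM + 1) profiles ran from 0.771 to 0.998 over 45 pairs, with a median of 0.969, as a description of points that share 8 libraries and the 2 tables. The genes outside the set whose profile was most like their mean standardised profile were COMMD8 (r = 0.999), UQCRC1 (0.998), COX7A2 (0.998), UBB (0.997) and LAMTOR5 (0.997), over the same 8 libraries. Such likeness was common: of 8767 other genes, 164 had an r above 0.98 and 572 above 0.95.

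Whether SNORA13 knockout altered the induction of these genes was read from the difference of the 2 changes, knockout minus WT. None of the 10 was called, by limma-trend or at an unadjusted p under 0.05, and their adjusted p was at least 0.859. Over all 8777 genes 0.0% were called, with 453 (5.16%) at an unadjusted p under 0.05, and limma-voom on recovered reads called 1 gene higher and 3 lower. With 2 clones per genotype the intervals are wide. For DUSP6 the difference was -0.21 on the log2 scale (95% interval -0.77 to 0.35), for EPHA2 -0.20 (-0.74 to 0.34) and for DUSP4 -0.06 (-0.86 to 0.74). SPRY2 stood at 0.59 (-0.64 to 1.82), PHLDA1 at 0.61 (-0.72 to 1.93), SPRY4 at 0.50 (-0.30 to 1.31) and TMEM158 at -0.43 (-1.35 to 0.49). DUSP5 (0.44, -0.26 to 1.14), SPRED1 (0.13, -0.50 to 0.77) and ETV5 (0.13, -0.65 to 0.91) complete the set.

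Levels were then compared between knockout and WT clones within each table. None of the 10 genes was called in either, and limma-trend called 0.0% of 8162 genes without 4-OHT and 0.0% of 7761 with it. An unadjusted p under 0.05 was reached by 688 genes (8.43%) without and 365 (4.7%) with 4-OHT, and limma-voom called 33 higher and 29 lower without and 25 higher and 28 lower with 4-OHT. EPHA2 reached an unadjusted p under 0.05 in both tables. Its log2 difference, knockout minus WT, was -0.50 ± 0.17 (SE) without 4-OHT (limma-trend, adjusted p = 0.581) and -0.70 ± 0.21 with it (adjusted p = 0.822). The ratio of means was 0.671 without and 0.598 with 4-OHT, and all 4 knockout libraries lay below the WT libraries of their table, as for 20.7% of all genes without and 18.5% with 4-OHT. With 4-OHT, limma-voom gave -0.76 and an adjusted p of 0.0401, within a range of 0.0401 to 1.00 over 9 alternatives. A gap in this direction in both tables was found for 391 of 7280 genes (5.37%), and the same clones supply both tables.

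SPRY2 was the other gene at an unadjusted p under 0.05, with 4-OHT only. Its log2 difference there was 0.70 ± 0.23 (SE), with an adjusted p of 0.822 by limma-trend, and the ratio of means was 1.64. DUSP5 and PHLDA1 also had both knockout clones above both WT clones with 4-OHT, at ratios of means of 1.27 and 1.34, beside 19.1% of all genes that did so. Without 4-OHT, DUSP4 and DUSP6 had no overlap, at ratios of 1.73 and 1.28, beside 18.9% of all genes. The DUSP4 difference without 4-OHT was 0.37 (95% interval -0.01 to 0.76, adjusted p = 0.606 by limma-trend). Without 4-OHT knockout clones 66 and 69 were themselves far apart for SPRY2 and PHLDA1, with clone 69 the higher.

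**Figure D3:**
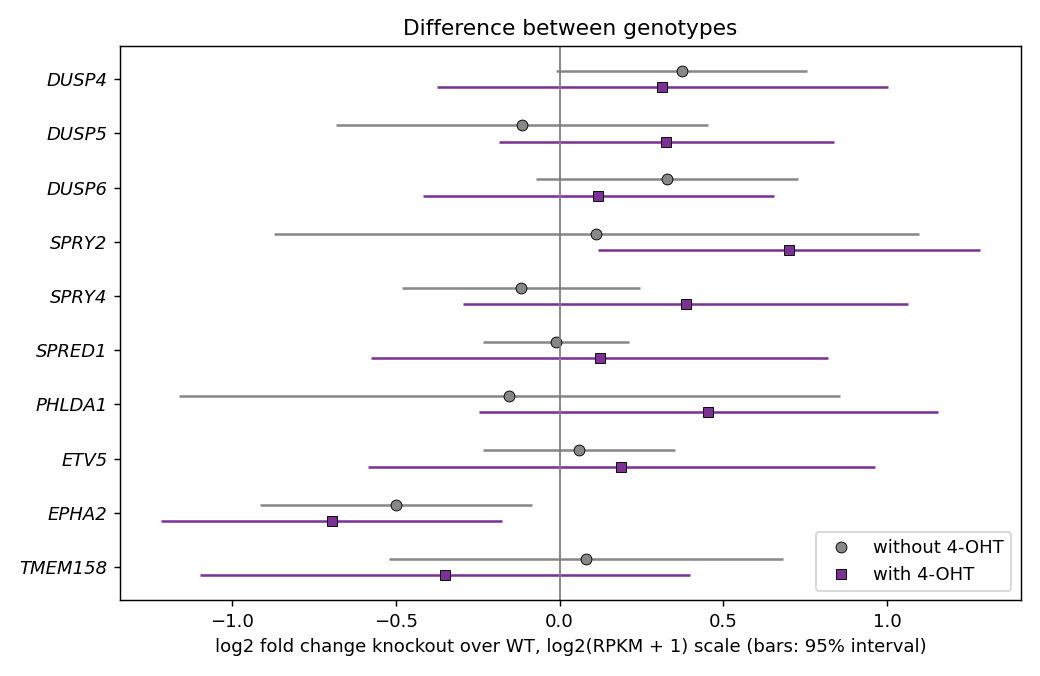
Log2 difference between knockout and WT clones for each of the 10 genes, without and with 4-OHT, on the log2(RPKM + 1) scale with 95% intervals from limma-trend. EPHA2 lies below 0 in both tables, at -0.50 and -0.70, and SPRY2 with 4-OHT lies above 0 at 0.70, while no gene passed an adjusted p of 0.05.

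Other genes of the pathway were followed through 5 lists that leave out the 10 genes. These lists too were chosen with earlier results of these data known, so their counts are a description. Of 17 further RAS-ERK output genes tested, 12 were higher in WT clones and 15 in knockout clones, beside 13.5% and 17.1% of all genes, and EPHA4 was lower in each, beside 8.06% and 10.6%. ETV1, SPHK1 and UPP1, called higher in both genotypes, did not reach the read filter in the libraries without 4-OHT alone. That filter was 10 or more recovered reads in 2 or more libraries. These genes entered through the libraries with 4-OHT, where they were higher, so their calls are a description only. The median log2 change of the 17 was 1.44 in WT and 1.59 in knockout clones. HMGA1, a chromatin architectural protein, moved from 2.08 ± 0.263 to 153 ± 36.1 RPKM in WT clones (SD, n = 2), a log2 change of 5.63. PLAT, the tissue plasminogen activator, went from 5.48 ± 0.214 to 139.9 ± 12.8 RPKM, a log2 change of 4.44, and PHLDA2, a relative of PHLDA1, from 42.1 ± 12.1 to 653 ± 223 RPKM, a log2 change of 3.91.

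Of 18 proteins of the cascade itself tested, 1 was called higher in WT clones, NRAS (1.81 ± 0.228 to 6.04 ± 0.433 RPKM, log2 change 1.33, adjusted p = 0.0116 by limma-trend), and 2 in knockout clones, NRAS and RPS6KA3, an ERK-activated kinase. These shares are not above those of all genes, 13.5% and 17.1%. In knockout clones 7 of the 18 had an unadjusted p under 0.05 in either direction. The share of all genes at that threshold is not given here, while 17.1% were called higher and 10.6% lower after adjustment. The median log2 change of this list was 0.12 and 0.04. Among 7 other dual-specificity phosphatases tested, 1 was called in WT clones, DUSP7, a cytoplasmic relative of DUSP6, and 2 in knockout clones, DUSP7 and DUSP10, beside 13.5% and 17.1% of all genes. DUSP7 went from 3.61 ± 0.498 to 15.2 ± 3.62 RPKM in WT and from 3.72 ± 0.0706 to 16.5 ± 0.812 RPKM in knockout clones.

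**Figure D4:**
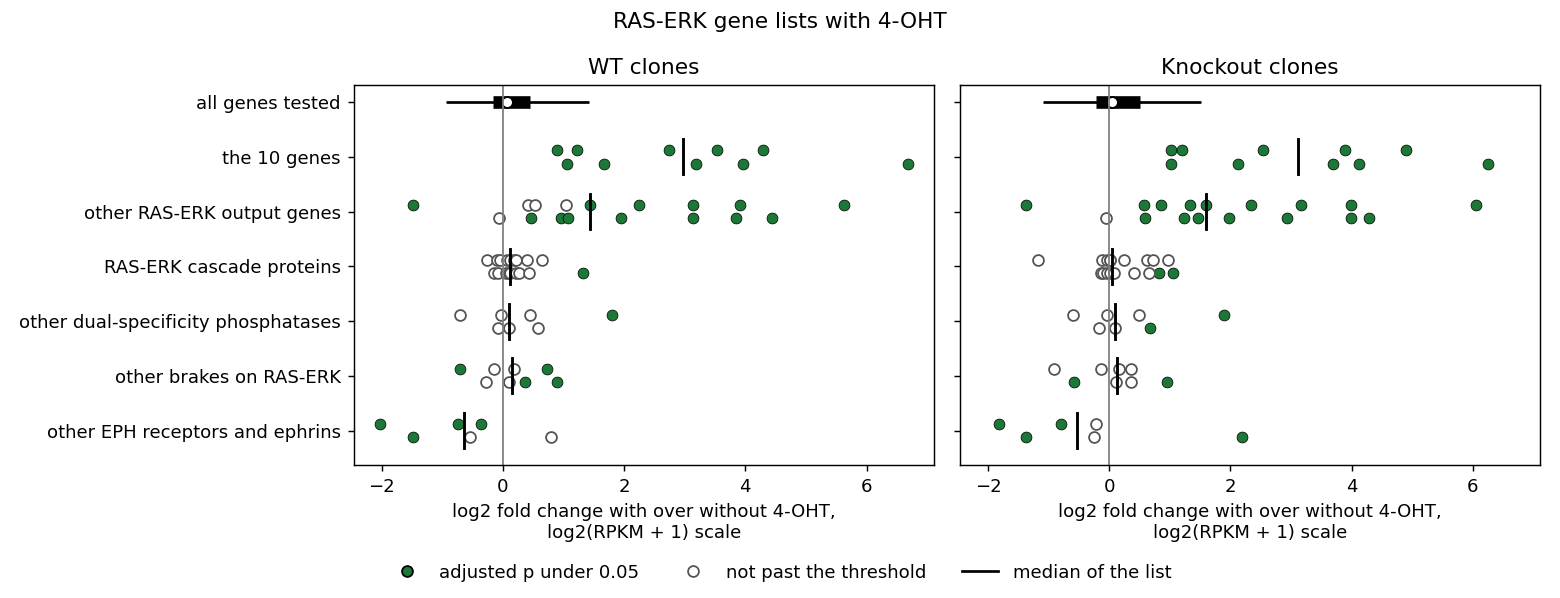
Log2 change with 4-OHT in WT and knockout clones for each tested gene of the 5 pathway lists and of the 10 genes, on the log2(RPKM + 1) scale, with 1 point per gene, filled where the adjusted p was under 0.05, and lines at the medians; the top row gives all genes tested as median, middle 50% (thick bar) and middle 90% (thin line). The 10 genes centre at 2.97 and 3.12 and the other output genes at 1.44 and 1.59, while the cascade proteins and other phosphatases centre near 0.1.

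Of 8 other brakes tested, ERRFI1, PEBP1 and SPRED2 were higher in WT clones and DAB2IP was lower, and in knockout clones ERRFI1 was higher and DAB2IP lower, beside 13.5% of all genes higher and 8.06% lower in WT and 17.1% and 10.6% in knockout clones. SPRED2, the relative of SPRED1, was at 0.107 ± 0.0545 RPKM without and 0.430 ± 0.181 RPKM with 4-OHT in WT clones (SD, n = 2). PEBP1, an inhibitor of the cascade, went from 22.6 ± 1.11 to 38.4 ± 3.25 RPKM. ERRFI1, an inhibitor of EGF receptor signalling, was near the floor without 4-OHT in both genotypes. It was at 0 in both knockout libraries and at 0 to 0.0578 RPKM in the WT libraries. With 4-OHT it was at 0.915 ± 0.0863 RPKM in WT and 0.944 ± 0.0191 RPKM in knockout clones. The recovered reads behind these low ERRFI1 values are not given here, and the knockout clones with 4-OHT include the shallowest library. DAB2IP, a RAS GTPase-activating protein, went from 0.749 ± 0.0278 to 0.0701 ± 0.0108 RPKM in WT clones.

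Several relatives of EPHA2 fell. Of 6 other EPH receptors and ephrins tested, 0 were higher and 4 lower in WT clones (EFNB2, EPHA4, EPHB3 and EPHB6), and 1 was higher (EFNB1) and 3 lower (EFNB2, EPHA4 and EPHB6) in knockout clones, beside 8.06% and 10.6% of all genes lower. EFNB1, another ligand of EPHB receptors, had a log2 change of 0.79 in WT (adjusted p = 0.205 by limma-trend) and 2.20 in knockout clones (adjusted p = 0.00718), and EPHB4 was called in neither genotype. EFNB2, a further ligand of EPHB receptors, went from 5.197 ± 0.0112 to 0.527 ± 0.222 RPKM in WT clones (SD, n = 2), a log2 change of -2.03. EPHA4 went from 2.27 ± 0.135 to 0.175 ± 0.111 RPKM, a log2 change of -1.48, and EPHB3 from 0.772 ± 0.209 to 0.0555 ± 0.0379 RPKM, a log2 change of -0.74, with -0.25 in knockout clones (adjusted p = 0.222 by limma-trend). With 4-OHT the EPHB3 values were at the floor, 0.0287 to 0.0823 RPKM in WT and 0 to 0.247 RPKM in knockout clones. EPHB3 and EPHB6 did not reach the read filter in the libraries with 4-OHT alone. They entered through those without 4-OHT, where they were higher, so their calls are a description only. The median log2 change of the 6 was -0.65 in WT and -0.53 in knockout clones. EPHA4 belongs to this list and to that of the output genes. By limma-trend no gene of the 5 lists was called between genotypes or for a difference in the 4-OHT response, as for 0.0% called of all genes. For that difference, 3 of these 6 (EFNB1, EPHB3 and EPHB6) had an unadjusted p under 0.05, beside 5.16% of all genes, and 0 in the other lists. Between genotypes without 4-OHT, the same 3 of these 6, 2 of 14 output genes and 1 of 18 cascade proteins did, beside 8.43%. Both comparisons use the same untreated libraries, so the counts of these 3 genes are not separate results. With 4-OHT 1 of 17 output genes did and 0 in the other lists, beside 4.7%. EPHB3 and EPHB6 were not tested there, because only 4 of the 6 reached the read filter.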

How the data were processed

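Ribosome-protected fragments were isolated and made into libraries by the protocols of McGlincy and Ingolia, per the labels, from 8 libraries of 4 groups. The authors aligned with STAR to GRCh38, per the submitters' processing notes; the sources used here do not give versions, counter, annotation or treatment of reads with several positions. The deposited values name no unit and were read as RPKM over the genomic span, because the products of value and RefSeq span added up to almost equal totals across libraries. Spans were matched for 11447 of 11546 genes without 4-OHT and 10980 of 11079 with it. Reads were recovered from the step between low values, of which 77.3% to 82.3% lay within 0.1 of a whole number, so single read numbers are approximate and their intervals cover counting error only.

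The 10 genes and the pathway lists were chosen with earlier results of these data known. limma 3.58.1 (limma-trend, R 4.3.3) was fitted to log2(RPKM + 1), with Benjamini-Hochberg adjustment over all genes tested and a threshold of 0.05. A gene needed 10 or more recovered reads in 2 or more libraries. In the fits of all 8 libraries, these could all be libraries with 4-OHT or all without it. The 4-OHT changes and their difference were fitted to all 8 libraries over the shared genes, and genotypes to the 4 libraries of a table. Each clone is 1 replicate within a group. The p-values rest on the spread between clones within groups, pooled over the groups of the fit and moderated across genes. The main fits of all 8 libraries have no clone term, although each clone enters without and with 4-OHT. Clones pair the libraries without and with 4-OHT, being the same lines per the labels; same-clone deviations correlated at 0.149 in WT (8143 genes) and 0.00808 in knockout clones (8026 genes). Named genes are the 10 members, up to 3 rises and 3 falls called in WT clones per list, and the 5 profiles most like the members; other called genes are named to complete a count. The tests were also run on simulated counts of independent libraries with a fixed spread and no clone effect. Changes were set only in genes with over 10 expected reads in the shallowest library. That check thus does not cover genes with fewer reads, and its outcome is not given here. Alternatives were a pseudocount of 0.1, no read filter, median-ratio scaling, limma-voom on recovered reads, the clone as a block, fits on 4 or 8 libraries, and each library left out. Levels per coding length and comparisons of the proteins were planned and not analysed here.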

Additional observations from a re-analysis of the deposited data

How the results depend on the processing

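All alternatives were planned. Called higher and lower with 4-OHT, WT clones gave 1860 and 1113 genes by limma-voom, and 480 to 679 and 283 to 368 with a library left out. Knockout clones gave 995 higher under median-ratio scaling, 735 and 438 on their 4 libraries alone, and 661 to 2002 and 453 to 1519 with a library left out. With the clone as a replicate block, 979 and 577 genes were called in WT and 1234 and 773 in knockout clones, and among the 10 genes only the ETV5 call in WT clones was lost. The difference in the 4-OHT response gave 1 and 3 genes by limma-voom, and 0 to 1 and 0 to 1 with a library left out. Knockout against WT without 4-OHT gave 33 and 29 by limma-voom and 2 and 1 on all 8 libraries. With 4-OHT it gave 25 and 28 by limma-voom, where EPHA2 made 1 of the 10 genes lower, and 0 to 224 and 0 to 586 with a library left out, the upper ends without knockout clone 69 with 4-OHT. The causes were not tested. No paired analysis was possible between genotypes because they share no clone number. An arm left with 1 library was assumed to vary like the others.

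Of the 10 genes, 9 were called higher in WT clones without the read filter, under median-ratio scaling and with the replicate block, and 8 to 9 with a library left out. In knockout clones 9 were called on 4 libraries alone and 9 to 10 with a library left out. The calls lost were those of ETV5 and SPRED1 (SPRED1 in WT clones only), and the other 8 genes passed all 10 alternatives in both genotypes.

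No value between genotypes that changed sign passed the threshold in either direction. By limma-voom the ETV5 difference in response was -0.043 and the SPRED1 difference without 4-OHT 0.048. With a library left out, the difference in response ran from -0.36 to 0.24 for DUSP4, -0.015 to 1.19 for SPRY2, -0.0085 to 0.28 for SPRED1 and -0.14 to 0.40 for ETV5. Knockout minus WT without 4-OHT ran from -0.35 to 0.12 for DUSP5, -0.49 to 0.72 for SPRY2, -0.25 to 0.018 for SPRY4, -0.10 to 0.080 for SPRED1, -0.71 to 0.40 for PHLDA1, -0.017 to 0.14 for ETV5 and -0.19 to 0.35 for TMEM158. With 4-OHT it ran from -0.019 to 0.26 for DUSP6, -0.020 to 0.27 for SPRED1 and -0.080 to 0.46 for ETV5. Depth limits the uninduced values of DUSP4, SPRY2, SPRY4 and TMEM158, at 4 to 38 recovered reads per library.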
